A study of Homo sapiens with 4 samples.

Results

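CIITA, CD74 and 8 classical and accessory MHC class II chain genes (HLA-DRA, HLA-DRB1, HLA-DPA1, HLA-DPB1, HLA-DMA, HLA-DMB, HLA-DQA1 and HLA-DQB1) were followed across 4 RNA sequencing libraries of human myeloma lines. The genes were taken by symbol, and the values of all gene identifiers that share a symbol were summed, which gave 10 genes of 22187 in all. The libraries come from KMS18 and KMS28BM (K18 and K28BM in the labels), plasma cell lines from multiple myeloma that both carry the t(4;14) translocation. In each line 1 library came from cells with a luciferase construct, the control, and 1 from cells with a stable knockdown of PKCα, a protein kinase encoded by PRKCA. All 4 groups thus share the translocation and carry a construct, and each group is 1 library of bulk RNA. The type of knockdown construct and the number of clones behind each line are not given in the sources used here.

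MHC class II molecules are pairs of an alpha and a beta chain that show peptides from endocytosed proteins to CD4+ T cells. CIITA does not bind DNA itself: it joins the RFX, CREB and NF-Y factors that sit on the X and Y boxes of class II promoters, and it sets the transcription of the whole group, CD74 included. CD74, the invariant chain, fills the groove of newly made class II molecules until HLA-DM exchanges its last fragment for a peptide. B cells carry class II on their surface, and plasma cells normally shut it down when the repressor PRDM1 (Blimp-1) silences CIITA.

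In both lines all 10 genes were listed higher in the knockdown library than in its control, against 40.1% of all 14870 genes tested. The median fold in FPKM (fragments scaled to gene length and library size) was 1.39 in KMS18 (range 1.2 to 1.84), where the genes started from high levels. In KMS28BM, where they started from low levels, it was 3.3 (range 1.33 to 9.2). In a test over both lines CIITA, HLA-DMB and HLA-DQB1 rose, and the other 7 did not pass. Among all genes tested 3.57% were called higher and 5.25% lower. HLA-DMB had 1 and 7 expected counts in KMS28BM, so its call rests on KMS18. None of the 3 calls held with no filter on low counts or with limma on log2(FPKM + 1), where the adjusted p was 0.123 and 0.0935 for CIITA, 0.0731 and 0.209 for HLA-DMB, and 0.0621 and 0.0542 for HLA-DQB1. The levels themselves lay far apart between the lines. All 10 genes were called lower in KMS28BM, as 32.3% of all genes tested were. Their control levels there were 0.0381% to 3.92% of those in KMS18. In bulk RNA fewer cells that express a gene and less RNA per cell cannot be told apart.

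**Figure D1:**
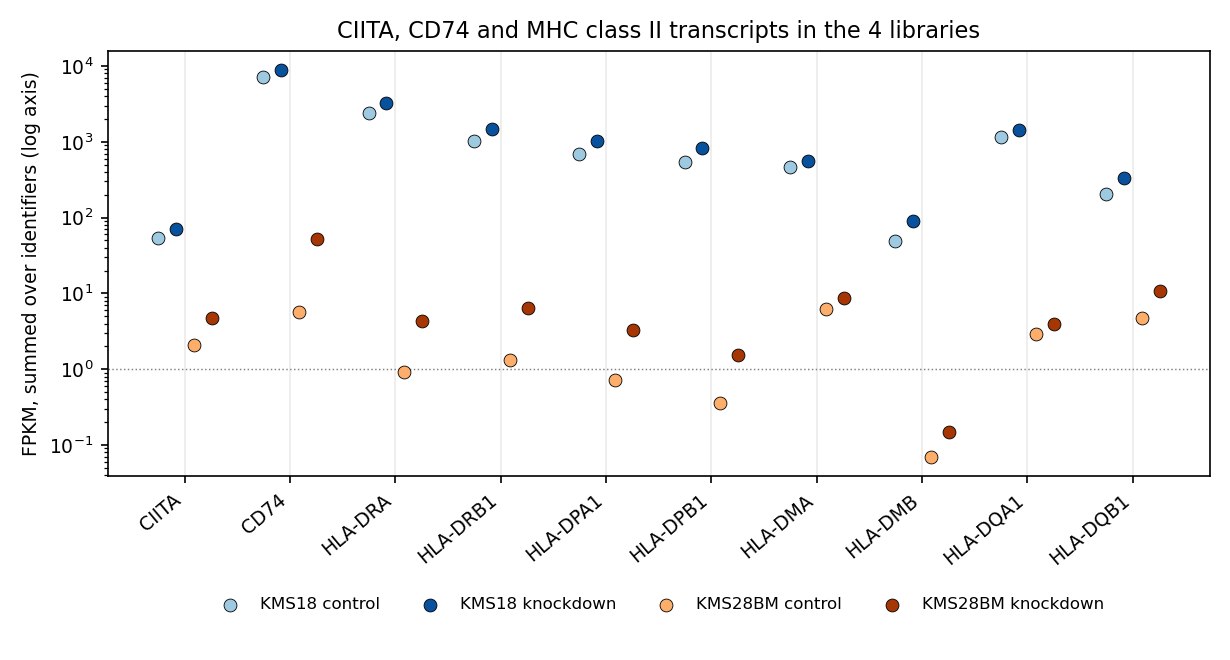
FPKM (log axis) of the 10 genes in the 4 libraries, 1 point per library; the dotted line marks 1 FPKM. In KMS18 every gene lies above 48 FPKM, and in KMS28BM every value lies below 10 FPKM but the knockdown values of CD74 and HLA-DQB1; in each line the knockdown point is above the control point.

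The promoters of these genes were searched for letters of the X and Y boxes, and stretches of 6 of them are shown because the genes share this regulator and were listed higher together. RefSeq promoter windows (GRCh38.p14, 250 bases before to 50 after a start site) were at hand for 8 of the 10 genes, and none was used for CIITA or HLA-DRA. They were searched on both strands for ATTGG, the core of the Y box, and for ACNGATG, which covers the end of the X box. Both motifs, and the spacing allowed between them, were chosen after these windows had been looked at. ATTGG or its complement was in the windows of 7 of the 8 genes and in 34.6% of all 35116 windows. ACNGATG was found for 5 of the 8 genes and in 7.65% of all windows. The pair in 1 orientation, with 15 to 30 bases between the motifs, was found for HLA-DRB1, HLA-DQB1 and HLA-DMA, and in 0.114% of all windows. The start of ACNGATG lay 29 bases before the start of ATTGG in HLA-DRB1 and HLA-DQB1, and 30 bases before it in HLA-DMA. The stretches below are written 5′ to 3′ on the strand of the gene, with the motif matches in capitals.
HLA-DRB1, chr6:32589879-32589938, minus strand: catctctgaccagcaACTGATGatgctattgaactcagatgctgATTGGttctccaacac
HLA-DQB1, chr6:32666728-32666787, minus strand: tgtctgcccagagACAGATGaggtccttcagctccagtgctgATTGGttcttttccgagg
HLA-DMA, chr6:32953158-32953217, minus strand: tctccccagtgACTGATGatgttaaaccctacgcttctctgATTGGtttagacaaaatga
HLA-DMB, chr6:32941039-32941123, minus strand: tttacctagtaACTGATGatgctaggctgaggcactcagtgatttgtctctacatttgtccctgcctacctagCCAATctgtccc
CD74, chr5:150412941-150413000, minus strand: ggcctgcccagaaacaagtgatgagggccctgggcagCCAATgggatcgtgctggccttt
HLA-DQA1, chr6:32637296-32637355, plus strand: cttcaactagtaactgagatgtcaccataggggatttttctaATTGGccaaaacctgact

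In HLA-DMB the ATTGG match is on the other strand from ACNGATG and reads CCAAT. It lies at -22 and ACNGATG at -84, farther apart than the spacing searched. The gene thus lacked the pair as searched, and whether this CCAAT is its Y box was not tested. In CD74 both matches are on the strand opposite to the gene, at -209 (ACNGATG, outside the stretch shown) and -53 (ATTGG) from the start site, so their order and distance did not meet the search. HLA-DQA1 and HLA-DPB1 held ATTGG without ACNGATG. Neither of the 2 windows of HLA-DPA1 held either motif, which says only that these letters are not in those windows. A match describes letters and not a bound site, and binding was not measured here.

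**Figure D2:**
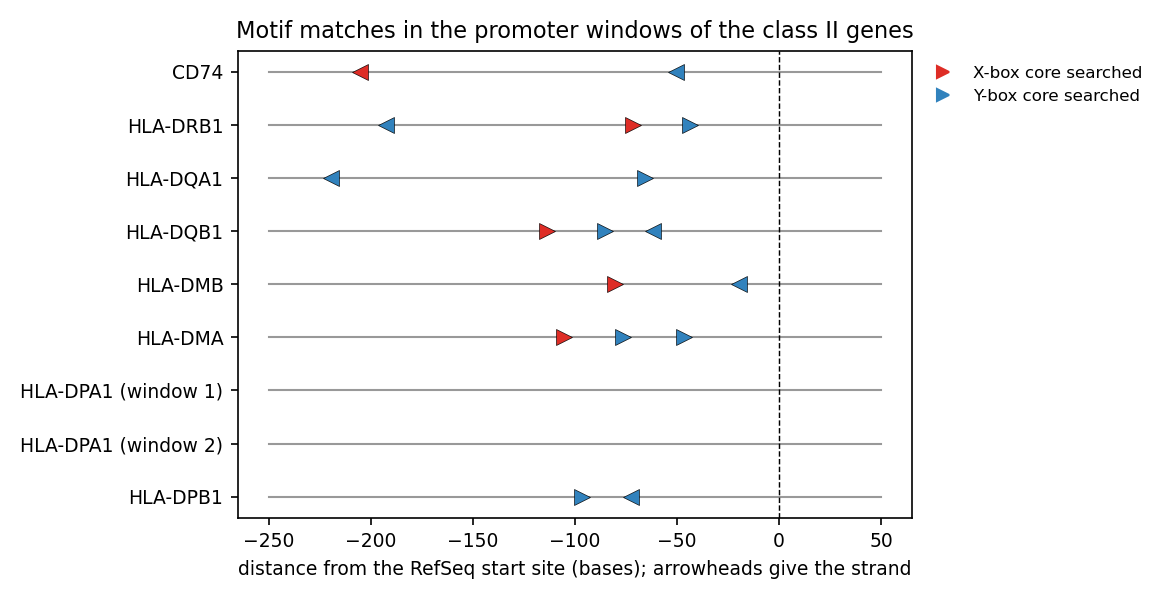
Positions of the X box and Y box cores searched in the 9 promoter windows of the 8 genes, in bases from the RefSeq start site; arrowheads point along the strand of the match. HLA-DRB1, HLA-DQB1 and HLA-DMA have an X box core followed by a Y box core within the spacing searched, CD74 has both on 1 strand but farther apart, and HLA-DPA1 has no match in either window.

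The libraries held between 37940949 and 39507281 expected counts. Where 4 values follow each other, the first pair is control and knockdown of KMS18 and the second pair control and knockdown of KMS28BM. PRKCA, the target, was at 7.46, 1.47, 10.86 and 2.43 FPKM, lower in both knockdown libraries (edgeR log2 difference -2.34, SE 0.11, adjusted p = 0.00153, n = 2 lines). The plasma cell label fitted the markers: JCHAIN, which encodes the joining chain of secreted antibodies, was between 5375.59 and 6759.75 FPKM in every library. Of 8 plasma cell markers 6 fell with the knockdown and 0 rose. Among all genes tested 3.57% were called higher and 5.25% were called lower with the knockdown. A call is an adjusted p under 0.05 in edgeR's quasi-likelihood test with the line as a block. Its only replication is the 2 lines, so it measures how alike the lines moved and not the spread between cultures.

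CIITA (ENSG00000179583) lies on chromosome 16, 10866222 to 10943021, on the plus strand (GRCh38). Its levels were 53.88, 70.82, 2.11 and 4.68 FPKM. The expected counts behind these levels were 8226, 11447, 337 and 749. Both KMS28BM libraries were below both KMS18 libraries, and each knockdown library was above its own control. The fold was 1.31 in KMS18 and 2.22 in KMS28BM. The log2 ratio of counts per library total was 0.48 (95% interval 0.44 to 0.52) in KMS18 and 1.17 (0.98 to 1.36) in KMS28BM. These are exact intervals that cover counting error only, since there is 1 library per group. CIITA rose in the test over both lines (edgeR log2 difference 0.71, SE 0.16, adjusted p = 0.0425, higher in 2 of 2 lines). CIITA has several promoters used by different cell types, and values per gene do not separate them. Its exons share 2416 bases with DEXI on the other strand in the annotation, and the library kit does not keep strand. DEXI was at 5.90, 7.24, 12.52 and 12.67 FPKM, so it was higher in KMS28BM, unlike CIITA. Its part in the CIITA counts was not tested.

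CD74 (ENSG00000019582, chromosome 5, 150401637 to 150412929, minus strand, GRCh38) had the highest level of the 10 genes in 3 libraries, the exception being the KMS28BM control. Its levels were 7267.35, 8842.04, 5.63 and 51.82 FPKM. Among all genes it ranked 10 and 8 from the top in KMS18, but 8034 and 1783 in KMS28BM. Within KMS28BM the knockdown value was thus 9.2-fold the control value, from 283 and 2620 expected counts (log2 ratio 3.23, interval 3.05 to 3.41). In KMS18 the fold was 1.22, from 352553 and 425518 expected counts (log2 ratio 0.27, interval 0.26 to 0.28). The counting intervals of the 2 lines do not overlap, but the difference between the lines was not tested, because 4 libraries in 4 groups leave no residual degree of freedom for it. CD74 did not pass the test over the lines together (edgeR log2 difference 1.57, SE 0.62, adjusted p = 0.168), and its SE was the largest of the 10 genes.

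The HLA-DR chains present peptide, and HLA-DRA (chromosome 6, 32439842 to 32445046, plus strand, GRCh38) is the alpha chain common to all of them. HLA-DRA was at 2389.64, 3265.09, 0.91 and 4.31 FPKM, from 107854, 148955, 43 and 202 expected counts. The beta chain HLA-DRB1 (32578769 to 32589848, minus strand, same chromosome and build) was at 1037.32, 1471.17, 1.34 and 6.51 FPKM, from 45242, 64342, 61 and 289 expected counts. In KMS28BM both chains thus stood close to 1 FPKM in the control and above 4 FPKM in the knockdown. The folds were 1.37 and 4.74 for HLA-DRA, and 1.42 and 4.86 for HLA-DRB1 (KMS18, then KMS28BM). Neither passed the test: the edgeR log2 difference was 0.94 for HLA-DRA (SE 0.33, adjusted p = 0.128) and 1.01 for HLA-DRB1 (SE 0.33, adjusted p = 0.104). The ratio of HLA-DRA to the sum of HLA-DRB1, HLA-DRB3, HLA-DRB4 and HLA-DRB5, in FPKM, was 1.47 and 1.44 in KMS18. In KMS28BM it was 0.427 and 0.471. For HLA-DR the ratio of alpha to beta chain transcripts was thus similar in the control and the knockdown of a line, and further apart between lines. The FPKM ratio of HLA-DQA1 to HLA-DQB1 moved more within a line, at 5.64, 4.35, 0.622 and 0.366.

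HLA-DPA1 (33064569 to 33080775, minus strand) and HLA-DPB1 (33075926 to 33087201, plus strand) encode the HLA-DP pair and lie head to head on chromosome 6 (GRCh38). HLA-DPA1 was at 685.5, 1039.36, 0.73 and 3.29 FPKM, from 39804, 61000, 47 and 163 expected counts. HLA-DPB1 was at 546.22, 828.18, 0.36 and 1.56 FPKM, from 25911, 39270, 14 and 73 expected counts. The knockdown value was 1.52-fold the control value for both in KMS18, and 4.51-fold and 4.33-fold in KMS28BM. HLA-DPA1 came closest to the threshold of the genes that missed it (edgeR log2 difference 0.89, SE 0.23, adjusted p = 0.0617). HLA-DPB1 did not pass either (edgeR log2 difference 0.82, SE 0.27, adjusted p = 0.107). The FPKM ratio of alpha to beta chain was 1.25 and 1.25 in KMS18, and 2.03 and 2.11 in KMS28BM. The exons of the pair share 96 bases on opposite strands, so some reads could be given to either gene.

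HLA-DMA and HLA-DMB form HLA-DM, which stays inside the cell and loads peptide. HLA-DMB (32934629 to 32941070, minus strand, chromosome 6, GRCh38) was at 48.45, 89.11, 0.07 and 0.15 FPKM. Its expected counts were 2152, 4200, 1 and 7, so in KMS28BM it was close to absent on its 7 listed identifiers. The reference identifier at the position given here, ENSG00000242574, was not among them. The part of this missing identifier in the low HLA-DMB values was not tested. HLA-DMB had the highest fold of the 10 genes in KMS18, at 1.84. In KMS28BM the log2 ratio of counts was 2.82 with an interval from -0.14 to 8.32, which includes no change. The call over both lines (edgeR log2 difference 0.95, SE 0.17, adjusted p = 0.0225) thus rests on KMS18. HLA-DMA (32948613 to 32969094, minus strand) behaved otherwise, with 459.97, 553.14, 6.18 and 8.61 FPKM. It was the highest of the 10 genes in the KMS28BM control, and it had the lowest fold in KMS18, at 1.2, beside 1.39 in KMS28BM. It did not pass the test (edgeR log2 difference 0.29, SE 0.11, adjusted p = 0.147). On the same strand, the annotated gene AL645941.2 shares 174 exon bases with HLA-DMA and 438 with HLA-DMB. Its part in their levels was not tested. The exons of HLA-DMA share 55 bases with BRD2 on the other strand, and BRD2 was at 234.84, 163.77, 170.51 and 135.81 FPKM. BRD2 was lower in both knockdown libraries while HLA-DMA was higher, and the part of BRD2 reads in the HLA-DMA level was not tested. The FPKM ratio of HLA-DMA to HLA-DMB, on the identifiers listed for each, was 9.49, 6.21, 88.3 and 57.4.

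HLA-DQB1 (32659467 to 32668383, minus strand, chromosome 6, GRCh38), the beta chain of HLA-DQ, was at 207.6, 332.64, 4.73 and 10.69 FPKM. The expected counts were 10246, 16405, 237 and 510. The fold was 1.6 in KMS18 and 2.26 in KMS28BM. HLA-DQB1 had the lowest adjusted p of the 10 genes (edgeR log2 difference 0.79, SE 0.13, adjusted p = 0.0157), and, as for CIITA, it was higher in 2 of 2 lines with counting intervals above 0 in both. The alpha chain HLA-DQA1 (32628179 to 32647062, plus strand) was at 1170.42, 1447.4, 2.94 and 3.91 FPKM and had the smallest difference of the 10 genes (edgeR log2 difference 0.19, SE 0.11, adjusted p = 0.32). Its level in KMS28BM depends on how its reads were assigned. There, 99.6% of the counts in the control and 96.4% in the knockdown were on 2 identifiers, ENSG00000228284 and ENSG00000236418, against 33.1% and 38% in KMS18. The length listed for these identifiers differs by line: it is between 6690.5 and 9001 bases in KMS28BM and between 757.9 and 1337 bases in KMS18. On the remaining identifiers of HLA-DQA1, KMS28BM held 3 and 32 counts (0.08 and 0.64 FPKM). An alternative without these 2 identifiers, added after seeing the data, gave a difference of 0.60 on log2(FPKM + 1) in KMS28BM in place of 0.32.

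**Figure D3:**
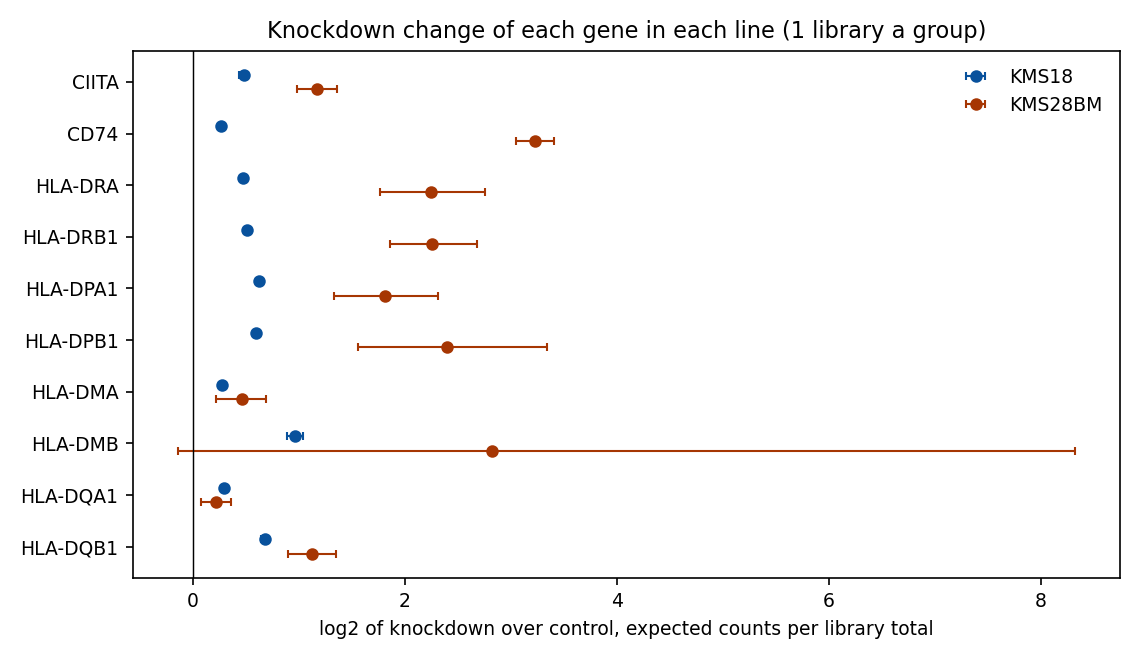
Log2 ratio of knockdown over control in expected counts per library total for each gene and line, with exact 95% intervals that cover counting error only (1 library per group). All 20 points lie above 0; the KMS28BM interval of HLA-DMB runs from -0.14 to 8.32 and is the one interval that reaches below 0.

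As a group, the 10 genes held 1.75% and 2.27% of all expected counts in KMS18, and 0.00527% and 0.015% in KMS28BM. Their summed FPKM was 13866.35, 17938.95, 25.00 and 95.53. The knockdown sum was thus 1.29-fold the control sum in KMS18 and 3.82-fold in KMS28BM. The FPKM fold was larger in KMS28BM for 10 of 10 genes, but in the ratio of counts HLA-DQA1 was the exception (0.29 in KMS18 and 0.22 in KMS28BM, log2). On log2(FPKM + 1), which shrinks differences between low values, the exception was HLA-DMB. The FPKM ratio of CD74 to CIITA was 135 and 125 in KMS18, and 2.67 and 11.1 in KMS28BM. All 10 genes passed the filter on low counts. The median log2 difference over both lines was 0.85 for them and 0.02 for all genes tested. The count of 3 called higher and 0 called lower is read against the 3.57% and 5.25% given above, and 9 of 10 had an unadjusted p under 0.05, as 26.4% of all genes tested had, HLA-DQA1 being the exception.

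Within a line, a gene was taken as past a size rule when it was higher by at least 1 on log2(FPKM + 1) and reached 1 FPKM in 1 of the 2 libraries. In KMS18 0 of 10 genes were past it, beside 0.818% of all genes that reached 1 FPKM. In KMS28BM 5 of the 9 that reached 1 FPKM were past it (CD74 at 2.99, HLA-DRB1 at 1.68, HLA-DRA at 1.48, HLA-DPA1 at 1.31 and HLA-DQB1 at 1.03), beside 1.24% of all genes. HLA-DMB is the gene that did not reach 1 FPKM in KMS28BM.

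**Figure D4:**
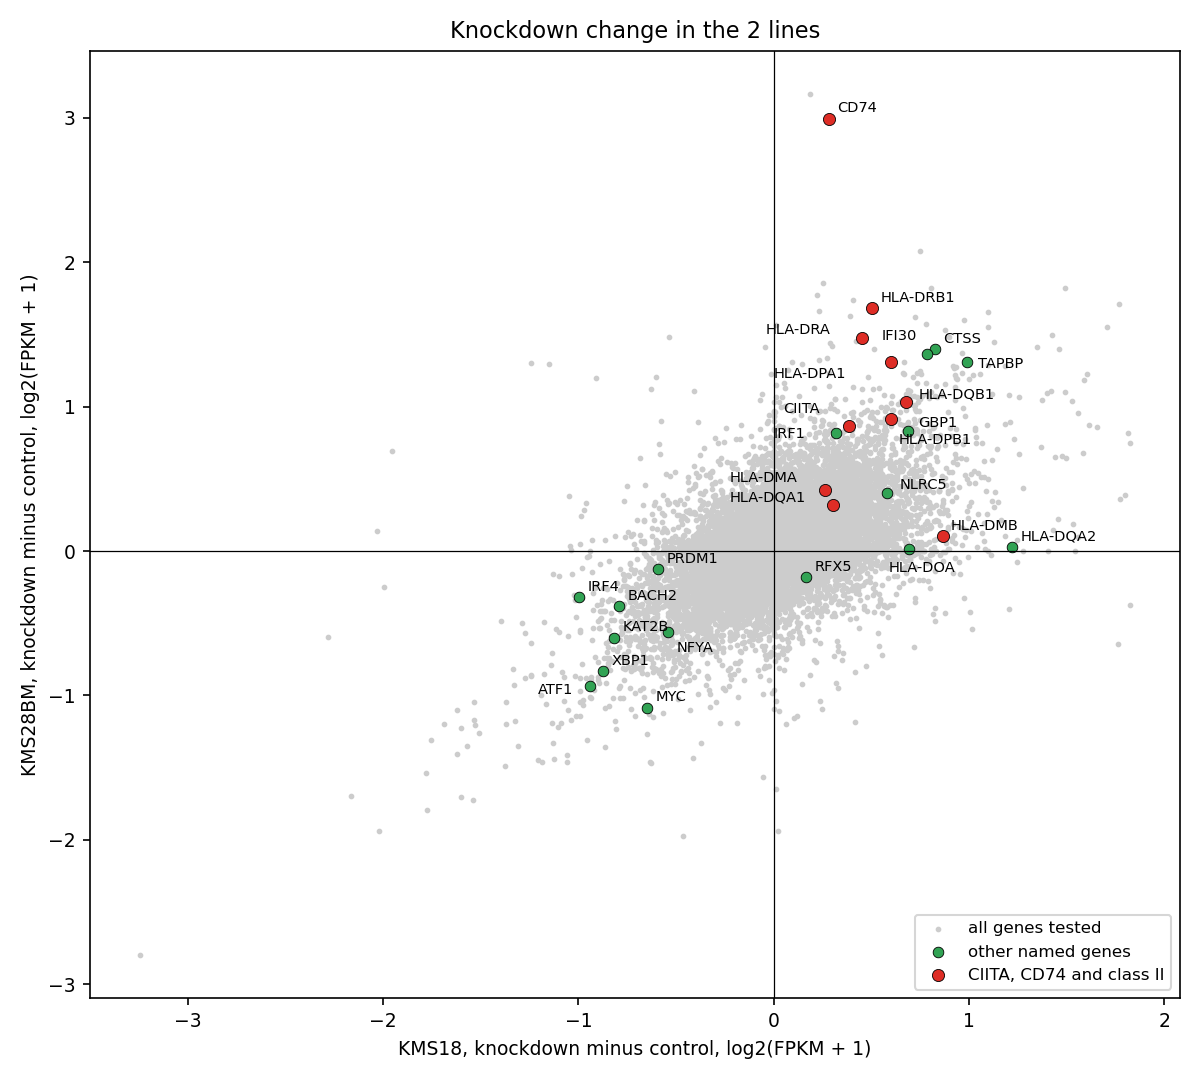
Knockdown minus control on log2(FPKM + 1) in KMS18 (x axis) and KMS28BM (y axis); grey points are the 14870 genes tested, red points the 10 genes, green points other named genes. The 10 genes lie in the upper right, with CD74 at 0.28 and 2.99, and the plasma cell regulators IRF4, XBP1 and PRDM1 lie in the lower left.

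The comparison of the lines used the same edgeR fit. All 10 genes were lower in KMS28BM, where 32.3% of all genes tested were called lower and 30.6% were called higher than in KMS18. The log2 difference (KMS28BM minus KMS18, edgeR) was -10.34 for HLA-DRA (SE 0.43, adjusted p = 3.81e-06), the largest of the 10 with identifiers summed, and -4.39 for CIITA (SE 0.18, adjusted p = 3.43e-06), the smallest. In order of size between these came HLA-DPB1 (-9.76), HLA-DMB (-9.73), HLA-DPA1 (-9.14), CD74 (-8.86), HLA-DRB1 (-8.62), HLA-DQA1 (-6.28), HLA-DMA (-6.17) and HLA-DQB1 (-5.34). The neighbours HLA-DPB1 and HLA-DMB differed by less than their SE (0.33 and 0.24), and so did HLA-DQA1 and HLA-DMA (SE 0.13 each). CD74 differed from both its neighbours by less than its own SE of 0.78. This order depends on how identifiers are treated, and for HLA-DMB the reference identifier was not listed. With the identifier of the highest count alone HLA-DQA1 (-15.66), HLA-DMB (-13.72) and HLA-DRB1 (-13.61) had the largest differences, HLA-DRA had -9.99 and HLA-DMA had -8.84. With limma on log2(FPKM + 1) HLA-DQA1 had -8.21 and HLA-DMB had -5.91. CIITA had the smallest difference in these 2 fits too (-4.39 and -3.90). The KMS28BM control counts were no single share of the KMS18 control counts: the share was 0.0399% for HLA-DRA, 0.0803% for CD74, 0.135% for HLA-DRB1, 1.44% for HLA-DMA and 4.1% for CIITA. For HLA-DQA1 it was 1.46% with all identifiers, but 0.00955% without the 2 identifiers set apart above. HLA-DOA, a class II gene outside the 10, had 3418 and 5671 counts in KMS18, and 0 and 1 in KMS28BM.

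HLA genes are held in the annotation as a reference copy and alternate copies with their own identifiers, and the copies that took the counts differed between the lines. For HLA-DRB1 the reference identifier ENSG00000196126 took 0.0547% and 0.0683% of the counts in KMS18, but 68% and 59.1% in KMS28BM. For HLA-DQB1 the reference identifier ENSG00000179344 took 0.00683% and 0.0061% in KMS18, but 79.1% and 84.7% in KMS28BM. For these genes the 2 shares within a line were closer to each other than to those of the other line. The HLA genes had between 6 and 8 listed identifiers each, CIITA and CD74 had 1. For HLA-DMB the reference identifier ENSG00000242574 was not among those listed. Since reads of near-identical copies can be split or shared by the counting, the levels of the HLA genes are uncertain in a way that those of CIITA and CD74 are not. HLA-DMB went the other way. Within KMS18 its identifier ENSG00000226264 had 28.6% of the counts in the control and 62.3% in the knockdown (614.95 and 2615 expected counts), while ENSG00000241674 had 26.3% and 5.42% (566.98 and 227.7 expected counts). With the identifier of the highest count alone, HLA-DMB was the 1 gene called, with a log2 difference of 2.01 in place of 0.95, and CIITA (adjusted p = 0.0757) and HLA-DQB1 (adjusted p = 0.0557) missed the threshold, although the counts of CIITA are the same in both edgeR fits.

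**Figure D5:**
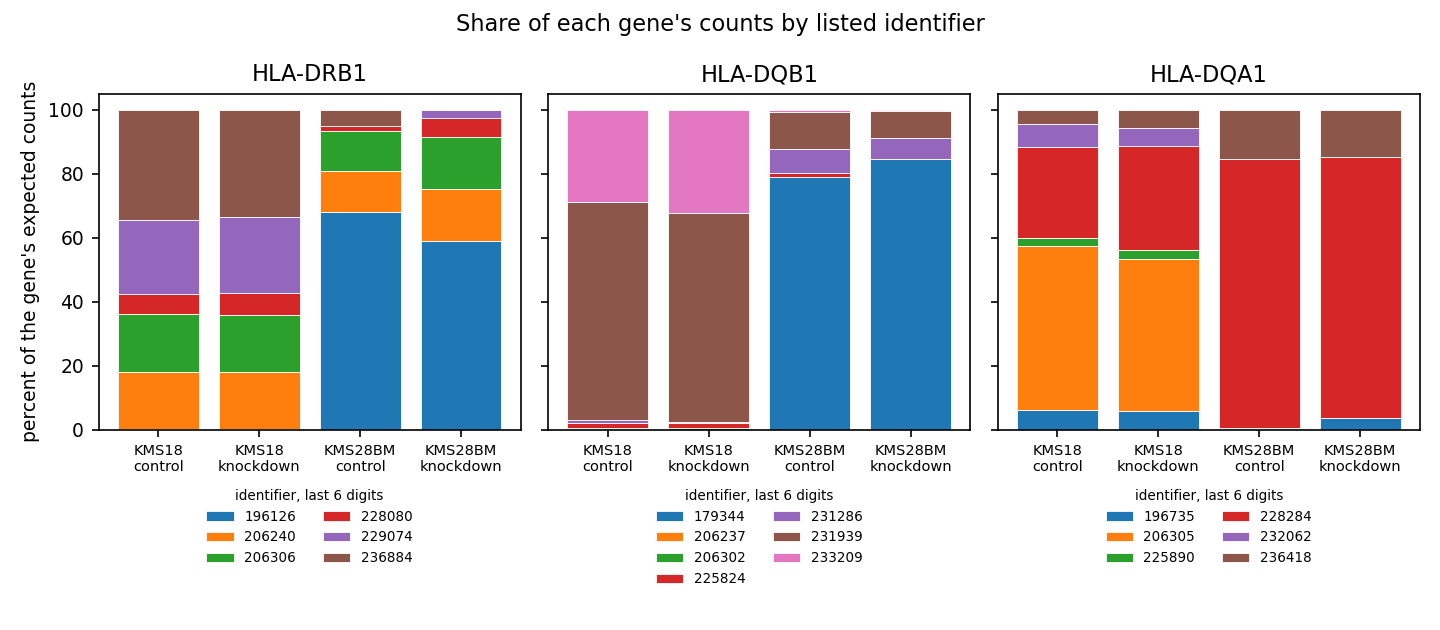
Percent of the expected counts of HLA-DRB1, HLA-DQB1 and HLA-DQA1 on each listed identifier (last 6 digits), 1 bar per library. The KMS18 bars of each gene resemble each other and differ from the KMS28BM bars, where the reference copy leads for HLA-DRB1 (68% and 59.1%) and HLA-DQB1 (79.1% and 84.7%).

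Genes of the wider pathway are given as counts per list. These are read against the 3.57% called higher and 5.25% called lower among all genes tested. Of 8 other class II genes 6 were tested, 2 rose and 0 fell (median log2 difference 0.74). HLA-DQA2, a copy close to HLA-DQA1, was at 160.64, 375.69, 0.08 and 0.10 FPKM (edgeR log2 difference 1.20, SE 0.14, adjusted p = 0.00875). HLA-DOA, a chain of the HLA-DM modulator HLA-DO, was at 28.51, 46.75, 0.00 and 0.01 FPKM (edgeR log2 difference 0.68, SE 0.15, adjusted p = 0.0398). Both had 5 counts or fewer in each KMS28BM library, so these calls rest on KMS18. HLA-DRB5 was at 62.65, 92.24, 0.54 and 2.07 FPKM and did not pass (edgeR adjusted p = 0.0896), nor did HLA-DRB3 (adjusted p = 0.161) or HLA-DRB4 (adjusted p = 0.0883).

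The factors that hold CIITA on the promoters are read against the 3.57% called higher and 5.25% called lower among all genes tested. Of 8 genes of the promoter-binding complex 0 rose and 2 fell (median -0.05). For so few genes a count of 0 higher is near the share over all genes. RFX5, the large RFX subunit, was at 120.39, 135.15, 67.94 and 59.91 FPKM (edgeR adjusted p = 0.842), and RFXANK was at 37.82, 43.24, 59.97 and 56.65 FPKM (edgeR adjusted p = 0.971). NFYA, a subunit of the Y box factor NF-Y, fell (15.78, 10.53, 24.36 and 16.23 FPKM, edgeR log2 difference -0.73, SE 0.10, adjusted p = 0.0117). ATF1, a relative of CREB, fell as well (24.79, 12.43, 22.67 and 11.39 FPKM, edgeR log2 difference -1.13, SE 0.13, adjusted p = 0.00777). Between the lines, RFX5 was lower in KMS28BM (edgeR log2 difference -1.09, SE 0.12, adjusted p = 0.000218) and RFXANK was higher (0.44, SE 0.11, edgeR adjusted p = 0.0136). The part of these factors in the class II levels was not tested. Of 13 coactivators and histone modifiers that work with CIITA 1 fell and 0 rose (median -0.10), near the shares over all genes. The one that fell was KAT2B, an acetyltransferase (8.09, 4.16, 2.47 and 1.29 FPKM, log2 difference -1.01, SE 0.13, edgeR adjusted p = 0.00926).

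Of 13 genes tested in the list of CIITA regulators 2 rose and 4 fell (median -0.20). IRF1, an activator of the interferon-driven CIITA promoter, was at 42.05, 52.67, 22.51 and 40.36 FPKM and rose (edgeR log2 difference 0.55, SE 0.13, adjusted p = 0.0472). NLRC5, counted in this list, is the transactivator of class I genes and a relative of CIITA rather than its regulator. It was at 10.62, 16.36, 8 and 10.87 FPKM and rose (0.50, SE 0.10, edgeR adjusted p = 0.0342). IRF4, XBP1, MYC and BACH2 fell, with log2 differences of -0.73, -0.90, -0.91 and -0.81 (edgeR adjusted p between 0.00671 and 0.0338). PRDM1, the repressor of CIITA in plasma cells, was at 52.81, 34.67, 46.43 and 42.52 FPKM. It was lower in both knockdown libraries and did not pass the test (-0.40, SE 0.14, edgeR adjusted p = 0.12). In the controls, 1 library per line, PRDM1 was at 52.81 and 46.43 FPKM and CIITA at 53.88 and 2.11 FPKM (KMS18, then KMS28BM). The part of PRDM1 in the CIITA levels was not tested.

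Among 16 interferon gamma pathway genes tested, IRF1 and GBP1 rose and 0 fell (median 0.11), while DESeq2 called 1 of the 16. GBP1, an interferon-induced GTPase, was at 0.18, 0.90, 0.05 and 0.87 FPKM (edgeR log2 difference 3.82, SE 0.61, adjusted p = 0.0153), from 11, 93, 2 and 89 counts, so it stayed below 1 FPKM in all 4 libraries. The interferon gamma receptor chain IFNGR2 (31.73, 35.22, 31.59 and 27.56 FPKM) and the kinase JAK1 (27.86, 29.21, 29.04 and 30.20 FPKM) were at like levels in both lines.

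Of 14 genes of antigen processing 2 rose and 0 fell (median 0.13). CTSS, cathepsin S, the protease that trims CD74 off class II molecules, was at 59.52, 106.18, 10.61 and 29.58 FPKM (edgeR log2 difference 1.09, SE 0.15, adjusted p = 0.0102). IFI30, a thiol reductase of the peptide-loading compartment, was at 13.38, 23.80, 3.18 and 9.75 FPKM (1.12, SE 0.21, edgeR adjusted p = 0.0247). Both were higher in each knockdown library and lower in KMS28BM, as the 10 genes were. CTSD and CTSC, lysosomal proteases, did not pass (edgeR adjusted p = 0.612 and 0.247). None of 5 CD74 partners and none of 11 turnover and traffic genes was called by edgeR or DESeq2 (medians -0.10 and -0.13). At an unadjusted p under 0.05 in edgeR, 1 of the partners was higher, and 3 turnover genes were higher and 1 was lower, beside the 26.4% of all genes given above. Of 12 class I genes 1 rose, TAPBP (tapasin, the class I loading factor), at 110.56, 221.01, 59.97 and 150.28 FPKM (edgeR log2 difference 1.04, SE 0.10, adjusted p = 0.00507). DESeq2 called 3 of the class I genes higher. The class I list had a median of 0.22, and HLA-B and B2M did not pass (edgeR adjusted p = 0.44 and 0.523). Of the 12, 11 were listed higher in both knockdown libraries, beside 40.1% of all genes tested. At an unadjusted p under 0.05 in edgeR 6 of the 12 were higher, beside 26.4% of all genes in either direction. A shift in both lines was thus not particular to class II.

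Markers of other cell types that express class II were read beside these values. Of 10 monocyte, macrophage and dendritic cell markers 7 were listed, 4 were tested and 0 were called, and their summed FPKM was 2.60, 7.58, 0.95 and 2.04. CD14 was listed at 0 in both KMS18 libraries, and S100A9 (1.80, 6.41, 0.00 and 0.00 FPKM) made up most of the KMS18 sum. Of 8 B cell markers 7 were listed, 6 were tested and 0 were called. Of 6 stromal and endothelial markers 2 were tested and 0 were called. These counts of 0 are from edgeR and were 0 with DESeq2 too, with 1 gene of each of the 3 lists higher at an unadjusted p under 0.05. MS4A1 (CD20) was between 0.06 and 0.17 FPKM in every library. PAX5, the B cell identity factor, was at 1.61, 2.29, 0 and 0 FPKM. BANK1, a B cell adaptor, went the other way between lines, at 0.34, 0.33, 51.84 and 72.93 FPKM. Of 7 T cell markers 3 were tested and CD3E rose (7.32, 20.95, 1 and 3.27 FPKM, edgeR adjusted p = 0.00611), while CD3D was at most 0.22 FPKM. Of the 3 tested, 2 were higher at an unadjusted p under 0.05 in edgeR. The summed FPKM of the T cell list was 9.84, 26.49, 1.19 and 3.55. The monocyte and T cell sums moved with the class II genes, and their part in the result was not tested.

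The genes whose profile over the 4 libraries was most like that of CIITA were CD70, IGFBP7, VIL1, ZXDB and CREB5. Likeness was the distance between profiles of log2(FPKM + 1), each centred on its own mean, among genes that reached 1 FPKM in 1 library, the 10 genes left out. CD70, a member of the tumour necrosis factor family, was the nearest at 0.22, with 20.53, 26.47, 0.44 and 1.43 FPKM. The next 4 lay at 0.34 to 0.38. HLA-DQB1, the nearest of the class II genes, lay at 1.13 from CIITA, and CD74 at 5.07. For CD74 the nearest outside the 10 were HLA-DRB3 (1.98), LCP1 (2.14), EPCAM (2.35), HLA-DQA2 (2.39) and CTAG2 (2.44). LCP1, an actin-bundling protein of blood cells, was at 288.21, 336.31, 0.53 and 4.22 FPKM, and like CD74 it was higher in the KMS28BM knockdown than in its control. HLA-DRB1 was closer to CD74 than any of these, at 1.08. These distances rest on 4 libraries and say nothing of shared control.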

How the data were processed

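RNA from 4 cell line samples was sequenced after TruSeq version 2 preparation from 100 ng total RNA, per the labels' protocols. The authors deposited for each identifier, per the file headers, an expected count that need not be whole, an FPKM value (fragments scaled to listed length and library size) and a gene length. STAR, Bowtie2, HISAT, GRCh37 and hg19 are named without roles, per the submitters' processing notes. Which counter was used is not given there. Both values were added up over the identifiers of a symbol, which left 22187 genes from 23844 identifiers, and the sums of expected counts were rounded. Depth was 37940949 to 39507281 expected counts.

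The edgeR quasi-likelihood test (edgeR 4.0.16, R 4.3.3) used TMM scaling, the default filter (minimum count 10, 14870 genes), cell line as block and construct, with Benjamini-Hochberg adjustment over all genes tested at 0.05. It had 1 residual degree of freedom and a prior of 5.85. The lines pair the libraries, since each gave 1 control and 1 knockdown library. The fit was run on simulated counts with the same fold in both lines and 1 dispersion for all genes. The 10 genes had unlike folds in the lines and some had low counts in KMS28BM. That run therefore does not show how the test performs on them. Within a line, with 1 library per group, differences are log2(FPKM + 1), and intervals are exact conditional Poisson (95%, counting error only). Positions come from GENCODE version 29 (GRCh38), matched by identifier without its version, except for HLA-DMB. Its position is that of ENSG00000242574, for which no counts were listed. Promoters come from RefSeq.

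The 10 genes and the lists were chosen with earlier results of these data known. Named are the 10 genes, every called gene of a list, the 3 others of each list with the highest mean FPKM, PRKCA and the 5 genes most like CIITA and CD74. Not every gene so named is printed, and 1 gene of the lists is not reported here. Alternatives were other scalings, filters, DESeq2 1.42.0, limma 3.58.1 on log2 FPKM, single identifiers and no block. The limma fits with an intensity trend, the HLA-DQA1 fit and the promoter motifs were added after seeing the data.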

Additional observations from a re-analysis of the deposited data

Results flagged for a closer look

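Of 79 named genes, 12 moved in opposite directions in the 2 lines on log2(FPKM + 1). The difference was not tested, and each line has 1 library per group. CIITA, CD74 and the 8 chain genes were not among them. For RFX5 the change was 0.17 in KMS18 and -0.18 in KMS28BM, a difference of -0.34. RFXANK, its partner, had 0.19 and -0.08 (difference -0.27), and the receptor chain IFNGR2 had 0.15 and -0.19 (-0.34). Of the CD74 partners, CXCR4, a chemokine receptor, had -0.35 and 0.24 (difference 0.59), and MIF, the cytokine that binds CD74, had -0.26 and 0.15 (0.41). The chromatin remodeller SMARCA4 had -0.04 and 0.15 (0.20). Among the cell type markers CR2, a complement receptor of B cells, had the largest difference, with 0.06 and -1.20 (-1.26). CD68 had -0.08 and 0.64 (0.72), BANK1 -0.01 and 0.48 (0.50), CD3G 0.30 and -0.01 (-0.31), COL1A1 -0.07 and 0.15 (0.22), and JCHAIN -0.08 and 0.02 (0.10).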

How the results depend on the processing

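The direction of all 10 genes, higher with the knockdown and lower in KMS28BM, was the same in every alternative run, and all 10 were called lower in KMS28BM in each of them. The knockdown calls were not so stable. Of the 10 genes 3 were called (1312 genes in all), and DESeq2, median of ratios scaling and the 5 CPM filter called the same 3. With no filter on low counts 0 were called, and 367 in all; 8 of the 10 had an unadjusted p under 0.05, as had 17.3% of all genes. With no cell line block 0 were called, and 0 in all, while 215 genes had an unadjusted p under 0.05. The planned limma fit on log2(FPKM + 1) called 0 of the 10 and 117 in all (at an unadjusted p under 0.05, 9 of the 10 and 25.1% of all), and on log2(FPKM + 0.1) 0 and 0 (unadjusted, 7 of the 10 and 22.7% of all). After these limma results were seen, the 2 fits were run again with an intensity trend in the variance, which called 6 and 5 of the 10, and 1029 and 1150 of all genes. The limma count therefore runs from 0 to 6 with a setting chosen afterwards. The identifier of the highest count alone gave 1 of the 10 and 855 in all. Among the genes of the lists other than the cell type markers the count was 15, against 7 with no filter, 0 with no block, and 3 and 0 with limma on log2(FPKM + 1) and log2(FPKM + 0.1). The median change within KMS28BM was 0.97 on log2(FPKM + 1), 1.51 on log2(FPKM + 0.1) and 1.60 in TMM-scaled CPM; the pseudocount shrinks the change of low genes. For the other counts that moved, the cause was not tested. Leaving out a replicate within a group was not possible with 1 library each. Low counts in KMS28BM limit HLA-DMB and HLA-DPB1 most.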
